A study of Mus musculus with 2 samples.

Results

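Voltage-gated sodium channel genes were followed in ribosome footprints from 2 control mouse brains collected on postnatal day 5. The set held 8 of the 45578 genes in the deposited table. The alpha subunit genes were Scn1a, Scn2a (written Scn2a1 in the file), Scn3a, Scn8a and Scn9a, and the beta subunit genes were Scn2b, Scn3b and Scn4b. They were chosen by symbol, and every one of the 8 had a mean count of at least 10, the minimum for testing. Both animals were of the genotype Smn+/-; SMN2tg/0 on an FVB background, from the Taiwanese mouse line used in spinal muscular atrophy research. They thus carried 1 intact copy of mouse Smn and a human SMN2 transgene, and they were the study's controls. There was 1 group with biological replicates 1 and 2, and no other age, genotype or treatment was analysed here. Polysomes were isolated from each brain, digested with RNase I, and the fragments that ribosomes shielded from the nuclease, of 25 to 35 nucleotides, were sequenced.

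Sodium channels carry the rising phase of the action potential. A channel consists of a large pore-forming alpha subunit, which senses voltage, opens and inactivates, together with small single-pass beta subunits, which alter its gating and its delivery to the membrane and act as adhesion molecules. In rodent brain, Scn2a and Scn3a are known as the alpha subunits of early life. Scn1a, important in inhibitory interneurons, and Scn8a, the main alpha subunit of mature axon initial segments and nodes of Ranvier, are known to rise later. Scn9a is best known from peripheral sensory and sympathetic neurons. The ages at which these genes switch come from textbook knowledge, since 1 age was sampled here.

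The libraries held 1866831 footprints in replicate 1 and 5261878 in replicate 2, of which the 8 sodium channel genes took 1567 and 5121. A level in CPM is a count scaled to the library total. Levels are compared between genes as footprint density, which is the CPM of a gene per kilobase of its longest annotated coding sequence. Intervals in brackets are exact Poisson 95% intervals of a single library. They cover counting error only, and PCR copies are not independent molecules. The tissue carried neuronal RNA, with a footprint density of 265 ± 8.61 (SD, n = 2) for Map2 and 676 ± 140 for Snap25. Of 3 olfactory neuron markers, Omp and Cnga2 had 0 footprints in both libraries, and Adcy3 had 136 and 464. Of 4 skeletal muscle markers, Ckm had 3 and 4 footprints, Myh3 1 and 20 and Tnnt3 1 and 10, while the actin gene Acta1, whose fragments can match other actins, had 140 and 264. A level in whole brain does not separate the number of cells that express a gene from the amount of RNA in each of them.

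Scn2a was the most densely occupied alpha subunit gene. Replicate 1 held 468 of its footprints and replicate 2 held 1719. Per coding length this was a density of 41.6 (37.9 to 45.6) in replicate 1 and 54.3 (51.7 to 56.9) in replicate 2, and the mean was 47.9 ± 8.93 (SD, n = 2). The replicate intervals did not overlap, but even the lower replicate lay above both replicates of every other alpha subunit gene. Scn2a encodes Nav1.2, the channel of unmyelinated axons and of initial segments in young excitatory neurons.

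Scn3a encodes Nav1.3, an alpha subunit best known from the embryonic and newborn nervous system. It had 242 and 695 footprints. The density came to 22.2 (19.5 to 25.2) in replicate 1 and 22.6 (21.0 to 24.3) in replicate 2, a mean of 22.4 ± 0.297 (SD, n = 2). The replicates were nearly equal, and both lay clearly below the Scn2a values.

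Scn8a, which encodes Nav1.6, had 184 and 627 footprints. This gave a footprint density of 16.5 (14.2 to 19.1) in replicate 1 and 20.0 (18.4 to 21.6) in replicate 2, a mean of 18.2 ± 2.44 (SD, n = 2). Both values lay under those of Scn3a, although the interval of replicate 2 reached into the Scn3a intervals.

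Scn1a encodes Nav1.1, whose loss in interneurons is linked to Dravet epilepsy. It had 106 and 383 footprints, at a footprint density of 9.42 (7.71 to 11.4) in replicate 1 and 12.1 (10.9 to 13.3) in replicate 2, a mean of 10.7 ± 1.88 (SD, n = 2). The replicate ranges of Scn1a and Scn8a did not overlap. Scn9a, which encodes Nav1.7, was the lowest alpha subunit gene of the set with 43 and 167 footprints. The Scn9a density was 3.87 (2.80 to 5.21) in replicate 1 and 5.33 (4.55 to 6.20) in replicate 2, a mean of 4.60 ± 1.03 (SD, n = 2).

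**Figure D1:**
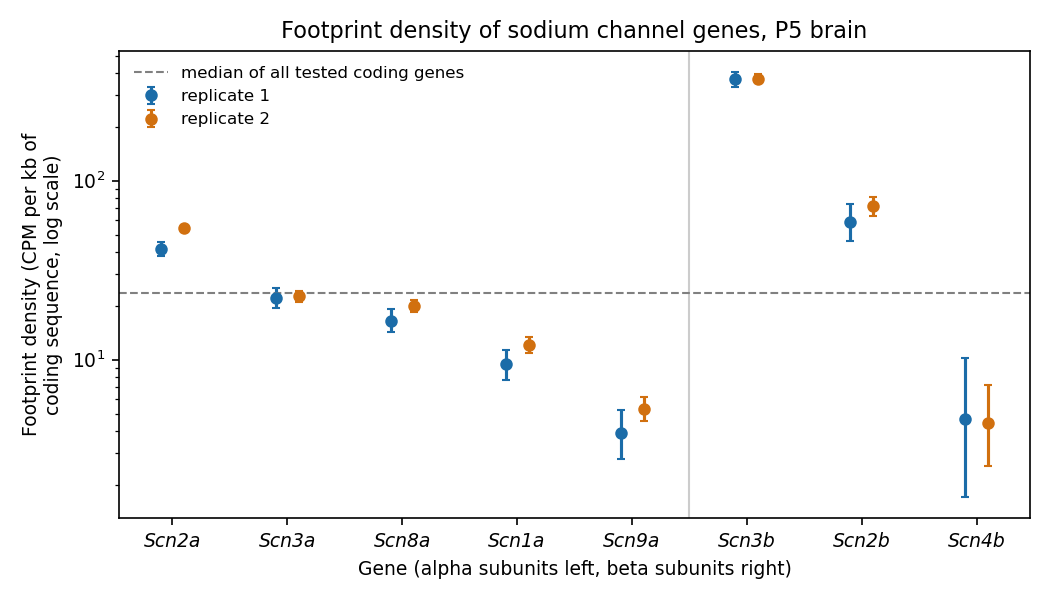
Footprint density of the 8 sodium channel genes (log axis, CPM per kilobase of coding sequence) in each replicate, with exact Poisson 95% intervals as bars and the median of all tested coding genes, 23.5, as a dashed line. Scn2a, at 41.6 and 54.3, sits above the other alpha subunit genes, and Scn3b, near 371 in both replicates, sits far above Scn2b and Scn4b.

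The order from high to low was therefore Scn2a, Scn3a, Scn8a, Scn1a and Scn9a in both replicates. Scn2a took 46.0% ± 2.14 (SD, n = 2) of the summed density of the 5 alpha subunit genes and Scn3a 21.7% ± 2.76. Scn8a took 17.6% ± 0.114, Scn1a 10.3% ± 0.360 and Scn9a 4.40% ± 0.378. Among the 5, the shares of Scn8a and Scn1a were the steadiest between the replicates, while the share of Scn3a was 23.7% in replicate 1 and 19.8% in replicate 2 and that of Scn2a 44.5% and 47.5%.

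The early genes Scn2a and Scn3a were compared with the later genes Scn1a and Scn8a within each library, where depth cancels. Intervals of these ratios are exact conditional (Clopper-Pearson) 95% intervals for counting error. Together, Scn2a and Scn3a had 2.48 times (2.16 to 2.85) the footprint density of Scn1a and Scn8a in replicate 1 and 2.42 times (2.24 to 2.60) in replicate 2. The mean ratio was 2.45 ± 0.0416 (SD, n = 2), so the replicates differed by far less than the counting intervals. A permutation test over samples was of no use here, as even 2 unpaired values against 2 cannot give a two-sided exact p below 0.333. Keeping the pairing within libraries leaves still fewer arrangements.

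The single pairs showed that this lead was carried mostly by Scn2a. Scn2a exceeded Scn1a by 4.42 times (3.57 to 5.51) in replicate 1 and 4.49 times (4.02 to 5.03) in replicate 2. Scn2a exceeded Scn8a by 2.52 times (2.12 to 3.01) and 2.72 times (2.48 to 2.98) in the same order. Scn3a exceeded Scn1a by 2.36 times (1.87 to 2.99) and 1.87 times (1.65 to 2.13). Scn3a stood least apart from Scn8a, at 1.34 times (1.10 to 1.64) in replicate 1 and 1.13 times (1.01 to 1.26) in replicate 2. That last interval only just cleared 1, so the order of Scn3a and Scn8a is the least certain among the alpha subunit genes.

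Within the early pair, Scn2a exceeded Scn3a by 1.88 times (1.60 to 2.20) in replicate 1 and 2.40 times (2.20 to 2.63) in replicate 2. Those intervals met only at their ends. Within the later pair, Scn8a exceeded Scn1a by 1.75 times (1.37 to 2.25) and 1.65 times (1.45 to 1.88), which are close. Scn1a exceeded Scn9a by 2.43 times (1.69 to 3.56) and 2.26 times (1.88 to 2.73). In all, 13 single pairs were compared, 10 among alpha and 3 among beta subunit genes. Each ratio had the gene of higher mean density as its numerator, so its direction was set by these data. In each of the 13, both replicates gave an interval that excluded 1, with no adjustment for the number of pairs.

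**Figure D2:**
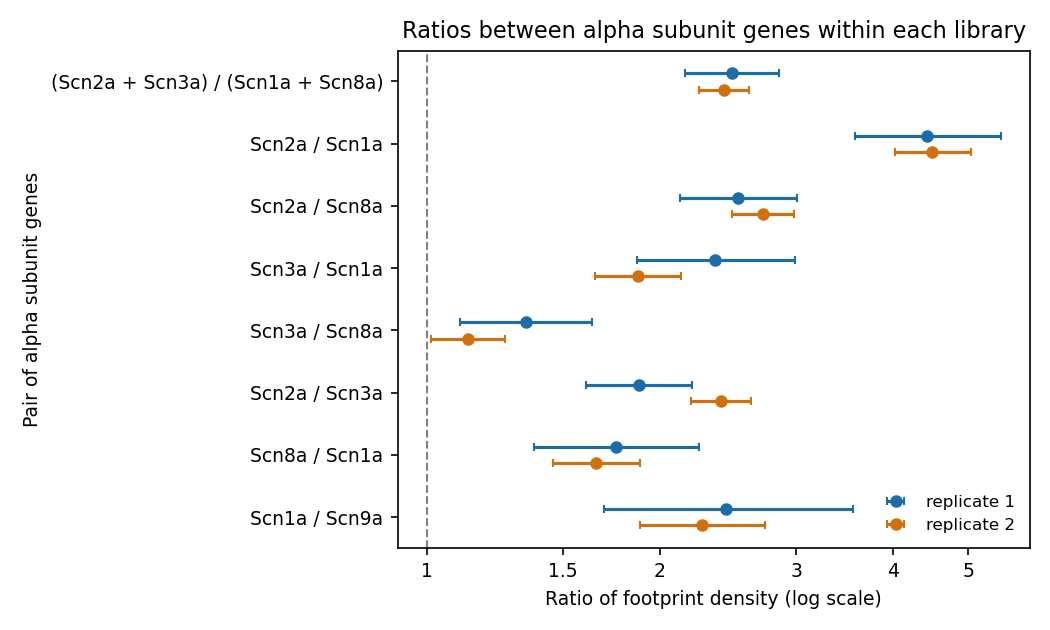
Ratio of footprint density between alpha subunit genes (log axis) within replicate 1 and within replicate 2, with exact conditional 95% intervals as bars and a dashed line at 1. The early pair over the later pair gives 2.48 and 2.42, and Scn3a over Scn8a, at 1.34 and 1.13, lies nearest to 1.

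The beta subunit genes spanned a wider range than the alpha subunit genes. Scn3b, whose protein associates with alpha subunits without a covalent bond, had 447 and 1269 footprints on a coding sequence of 648 nucleotides. Its footprint density was 369.5 (336 to 405) in replicate 1 and 372 (352 to 393) in replicate 2, a mean of 371 ± 1.88 (SD, n = 2). This put Scn3b at rank 372 of 13349 tested genes with a coding sequence, percentile 97.2, with the replicates almost identical.

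Scn2b, whose protein is joined to alpha subunits by a disulfide bond and is cut by the protease BACE1, had 71 and 245 footprints. The Scn2b density was 58.7 (45.8 to 74.0) in replicate 1 and 71.9 (63.1 to 81.4) in replicate 2, a mean of 65.3 ± 9.31 (SD, n = 2). Scn4b, whose protein is linked to resurgent sodium current in fast-firing neurons such as Purkinje cells, had 6 and 16 footprints. Its footprint density was 4.68 (1.72 to 10.2) and 4.43 (2.53 to 7.19), a mean of 4.55 ± 0.178 (SD, n = 2), with counts too small to place it more closely. Purkinje cell genes were present, with Calb1 at a footprint density of 116 ± 26.5, Car8 at 43.8 ± 9.21 and Itpr1 at 7.90 ± 0.427. Pcp2 differed most between the replicates among the Purkinje cell markers, at a density of 31.3 in replicate 1 and 110 in replicate 2.

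Scn3b exceeded Scn2b by 6.30 times (4.89 to 8.21) in replicate 1 and 5.18 times (4.51 to 5.96) in replicate 2. Scn2b exceeded Scn4b by 12.5 times (5.49 to 35.3) and 16.2 times (9.80 to 28.9), intervals that are wide because of the low Scn4b counts. Scn3b thus took 84.2% ± 1.68 (SD, n = 2) of the summed density of the 3 beta subunit genes, Scn2b 14.8% ± 1.74 and Scn4b 1.03% ± 0.0663.

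By raw counts the alpha subunit genes led, with 1043 footprints in replicate 1 and 3591 in replicate 2 against 524 and 1530 on the 3 beta subunit genes. Per coding length the order turned. Counts over summed coding lengths were 7.55 times (6.79 to 8.40) as high on the beta as on the alpha subunit genes in replicate 1 and 6.41 times (6.03 to 6.80) in replicate 2. With the longest transcript as the length in place of the coding sequence the mean ratio was 1.59, in place of 6.98. The table gives no position along the transcript, and the beta subunit mRNAs are mostly untranslated sequence: the coding part of Scn2b covers 648 of the 4562 nucleotides of its longest transcript.

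Against all 13349 tested genes with a coding sequence, whose median footprint density was 23.5 with quartiles of 8.92 and 60.5, Scn2a lay at percentile 69.2 and Scn2b at 76.7. Scn3a lay at percentile 48.7, Scn8a at 43.0 and Scn1a at 29.4. Scn9a lay at percentile 12.8 and Scn4b at 12.6. The alpha subunit genes are unusually long, as 97.3% of these genes had a coding sequence shorter than 6000 nucleotides. The other 585 tested genes with a coding sequence of at least 5000 nucleotides had a median density of 6.97, so 4 of the 5 alpha subunit genes were above the middle of genes of like length. That minimum length was chosen after the values had been seen.

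Other alpha subunit genes of the table were low in this tissue. Scn7a, a sodium-sensing relative, had 1 and 13 footprints. The sensory neuron genes Scn10a and Scn11a had 2 and 3, and 2 and 5, footprints. Scn4a of skeletal muscle had 0 and 1, where 0 allows up to 1.61 CPM, taking 3 counts as the limit. The density of Scn9a, at 3.87 and 5.33, was above that of each of these 4 genes in both replicates, of which the highest value was 0.490 for Scn7a in replicate 2. Among markers of peripheral sensory neurons, Trpv1 had 1 and 2 footprints, Avil 4 and 14, Calca 13 and 41 and Prph 32 and 129, and their part in the Scn9a value was not tested.

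Scn3a, Scn2a, Scn1a and Scn9a lie in 1 cluster on chromosome 2, where Scn3a is next to Scn2a and Scn1a next to Scn9a among the coding genes of the RefSeq table for GRCm38.p6. Scn8a lies on chromosome 15 and the 3 beta subunit genes on chromosome 9, with Scn2b next to Scn4b. Neighbours differed in footprint density, by 2.14 ± 0.370 times (SD, n = 2) for Scn2a over Scn3a, 2.35 ± 0.120 times for Scn1a over Scn9a and 14.4 ± 2.61 times for Scn2b over Scn4b. Fragments that match more than 1 alpha subunit gene could have been split between them, and how such fragments were handled is not given in the sources used here.

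The 8 genes had 60 annotated transcripts, and the deposited counts were spread over many of them. Full-length transcripts of a gene have nearly equal coding lengths, and how fragments matching several of them were assigned is not given. The split between them therefore need not show which transcript was translated. For Scn2a, 3 transcripts carry the coding sequence of 6021 nucleotides. Scn2a1-001 had 132 and 495 footprints, Scn2a1-002 had 130 and 441, and Scn2a1-201 had 140 and 486. Scn2a1-002 has a 3′ untranslated region of 226 nucleotides against 2618 in the others. Without positions along the transcript, this split cannot show how many footprints lay in that region. The 3 full-length transcripts held 84.3% ± 2.25 (SD, n = 2) of the gene's footprints. A short coding transcript, Scn2a1-004, had 27 and 159, and 3 retained-intron transcripts together had 30 and 90.

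Scn3a was simpler, as Scn3a-001 with 118 and 319 footprints and Scn3a-201 with 107 and 335 held 93.5% ± 0.796 (SD, n = 2) of its footprints. Neither was consistently the higher of the pair. Scn8a had the most transcripts, 20, of which 6 carry at least 95% of the longest coding sequence. These 6 had between 20 and 36 footprints each in replicate 1 and between 83 and 100 in replicate 2, and held 85.8% ± 0.677 of the total. For Scn1a, 4 such transcripts held 74.9% ± 2.15, and Scn1a-007, annotated as a target of nonsense-mediated decay, held 9.13% ± 2.23 with 8 and 41 footprints. For Scn9a, 5 such transcripts held 98.8% ± 1.69. The 5 transcripts had between 6 and 12 footprints each in replicate 1 and between 29 and 37 in replicate 2. That spread does not tell which of them was translated.

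Scn3b differed in the share of counts assigned to transcripts without a coding sequence. How fragments matching both such a transcript and a coding transcript were assigned is not given. The share therefore need not be footprints of RNA without a coding sequence. Scn3b-002 (a retained intron), Scn3b-006 (a retained intron) and Scn3b-007 (a processed transcript) together held 120 of 447 footprints in replicate 1 and 280 of 1269 in replicate 2, or 24.5% ± 3.38 (SD, n = 2). The share was 5.82% ± 0.831 for Scn2a, 5.40% ± 1.13 for Scn3a, 4.71% ± 1.02 for Scn8a, 2.17% ± 1.73 for Scn1a and 1.20% ± 1.69 for Scn9a. Scn2b and Scn4b have no such transcript in the table. Over all tested genes with a coding sequence the share was 15.1% in replicate 1 and 16.1% in replicate 2. With the footprints of coding transcripts alone, the Scn3b density was 280 and its lead over Scn2b 4.32 times, in place of 371 and 5.74. With the highest transcript of each gene alone the lead was 1.86 times, a setting that keeps 1 of the 9 Scn3b transcripts and 1 of the 2 of Scn2b.

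**Figure D3:**
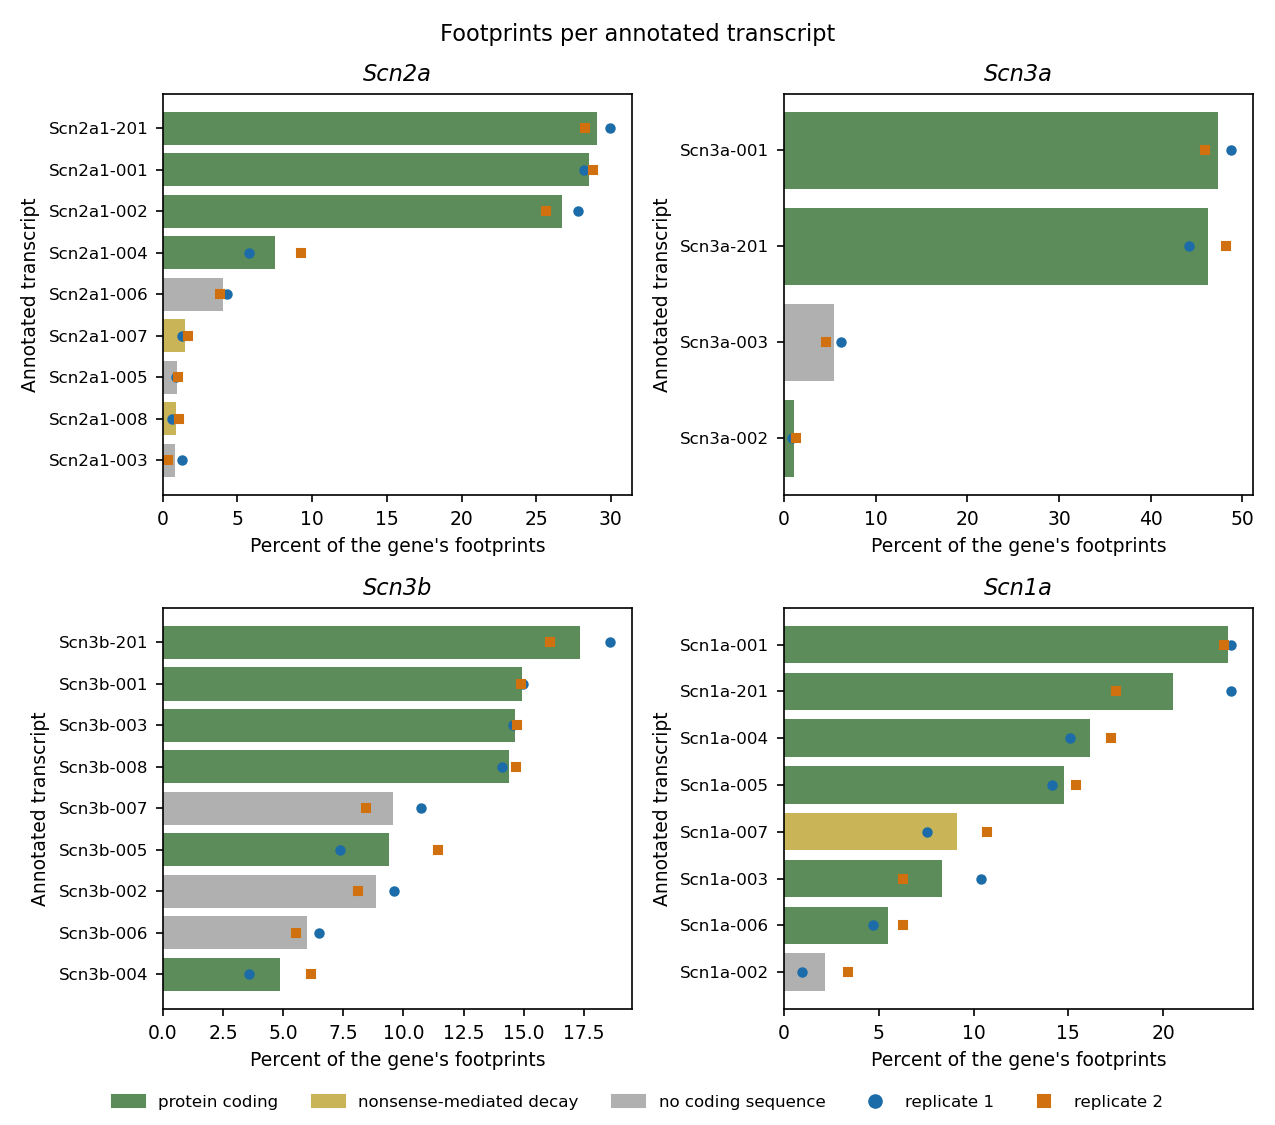
Percent of a gene's footprints on each annotated transcript of Scn2a, Scn3a, Scn3b and Scn1a, with bars for the mean and points for each replicate, coloured by whether the transcript is coding, a target of nonsense-mediated decay or without a coding sequence. Full-length coding transcripts were assigned about equal counts in Scn2a and Scn3a, while transcripts without a coding sequence were assigned 24.5% in Scn3b.

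The 2 libraries were also compared gene by gene, which asks how far replicate brains gave the same channel profile and compares no conditions. Counts were set against the ratio of TMM (trimmed mean of M values) library sizes in an exact binomial test, two-sided, which called 17.4% of 16427 tested genes at an adjusted p under 0.05, with 5.95% higher and 11.5% lower in replicate 2. Of the 8 sodium channel genes, 1 was called, near that background. Scn2a was higher in replicate 2, at 327 CPM against 251 CPM, a log2 ratio of 0.38 by library totals. After TMM scaling the Scn2a log2 ratio was 0.26 (exact 95% interval 0.11 to 0.41). The exact binomial p for Scn2a after Benjamini-Hochberg adjustment was 0.00581. The Scn2a call was lost when the highest transcript alone was counted and under edgeR's exact test with a common dispersion, at log2 ratios of 0.36 and 0.26. That dispersion was estimated from the same pair of libraries.

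The other 7 genes were not called, and their intervals show what the depth allows. The log2 ratio was 0.33 (-0.15 to 0.86) for Scn9a, 0.23 (-0.08 to 0.56) for Scn1a and 0.15 (-0.09 to 0.39) for Scn8a. It was 0.16 (-0.22 to 0.57) for Scn2b, -0.10 (-0.31 to 0.12) for Scn3a, -0.12 (-0.27 to 0.04) for Scn3b and -0.18 (-1.63 to 1.44) for Scn4b. Scaling by library totals moved the median of all genes from 0.01 to 0.13, and with it Scn3a to 0.03 and Scn3b to 0.01. The median over the 8 genes was 0.16, against 0.01 over all tested genes and 0.10 over the 585 other genes with a long coding sequence, of which 20.9% were called.

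**Figure D4:**
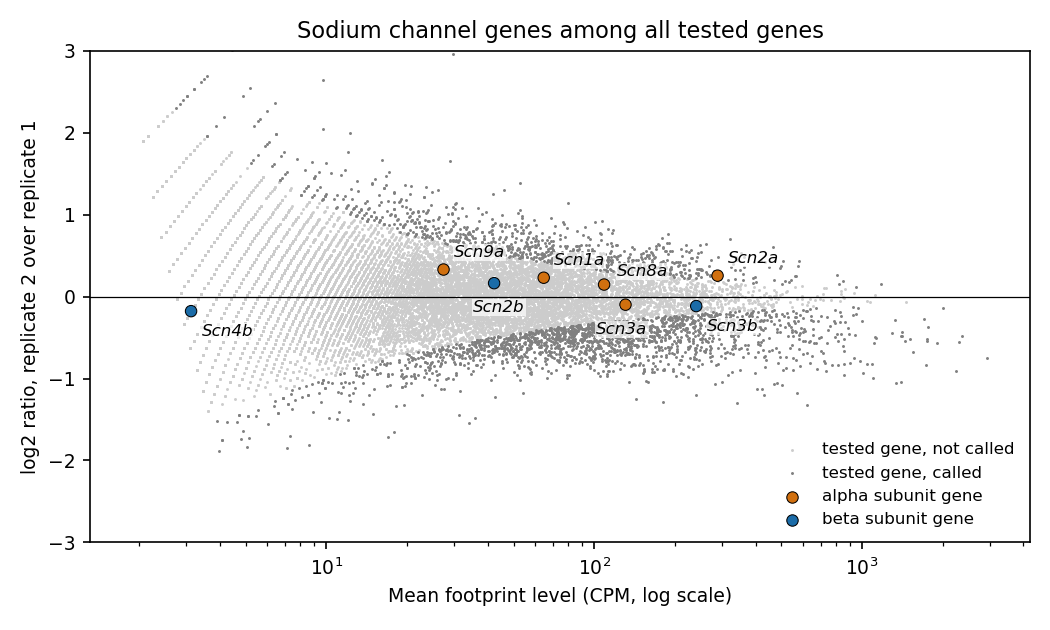
Log2 ratio of replicate 2 over replicate 1 after TMM scaling against mean footprint level (CPM, log axis) for 16427 tested genes, with alpha subunit genes in orange and beta subunit genes in blue; 17 genes lie beyond the plotted range of 3. All 8 sodium channel genes lie between -0.18 and 0.33.

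Cell type marker lists were counted whole under the same exact binomial test between the replicates. Of 6 inhibitory neuron markers, 3 were called lower in replicate 2 and none higher, Lhx6 had a log2 ratio of 0.65 without passing, and their summed level was 903 CPM in replicate 1 and 676 CPM in replicate 2. Of 5 excitatory neuron markers, 4 were called lower in replicate 2 and none higher, with sums of 671 and 539 CPM. Of 5 general neuron markers, 3 were called lower in replicate 2 and none higher, with sums of 4036 and 3323 CPM. Rbfox3 and Map2 of that list were not called. Over all tested genes, 11.5% were called lower and 5.95% higher. Under edgeR's exact test with a common dispersion, 11 of all tested genes were called, each of them higher in replicate 2. None of the marker genes called lower thus passed under that test. Of 4 Purkinje cell markers, 1 was higher and their sums were 185 and 263 CPM, while of 4 oligodendrocyte lineage markers 2 were higher and 1 lower, with sums of 572 and 840 CPM. No defining marker of these lists was at 0. The part of cell makeup in the Scn2a difference was not tested.

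Sodium channels are held at the axon initial segment by ankyrin-G, the product of Ank3, and by beta-IV spectrin, the product of Sptbn4. All 12 genes of the scaffold and adhesion list were tested, 4 were higher in replicate 2 and none lower, and their median density was 69.3. Over all tested genes, 5.95% were higher and 11.5% lower in replicate 2. Of the 585 other genes with a long coding sequence, 79 were higher and 43 lower. Ank3 had a density of 39.01 ± 6.44 (SD, n = 2), Nfasc, which encodes the adhesion molecule neurofascin, 55.5 ± 5.57, and Sptbn4 8.66 ± 0.0261. Sptbn4 stood lowest of the 12, below Scn1a in both replicates, while Sptbn1 stood at 121 ± 12.9.

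The FGF homologous factors bind the tails of alpha subunits and shift their inactivation. None of the 4 was called, while 17.4% of all tested genes were. Fgf13 led with a density of 259 ± 44.9 (SD, n = 2), followed by Fgf12 at 68.4 ± 3.55, Fgf14 at 43.2 ± 6.19 and Fgf11 at 20.5 ± 1.10. Fgf14, known from mature initial segments, thus stood below Scn2a and above Scn3a in mean density. Its density was 38.8 (29.2 to 50.5) in replicate 1 and 47.6 (41.0 to 54.8) in replicate 2. Both values lay below Scn2a in the same library, although the intervals overlapped those of Scn2a.

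Of 11 ligases, kinases and other partners, 2 were higher and 2 lower in replicate 2, with a median density of 134. Over all tested genes, 5.95% were higher and 11.5% lower. Nedd4l, a ubiquitin ligase that removes sodium channels from the membrane, had a density of 42.6 ± 2.37 (SD, n = 2), and its relative Nedd4 256 ± 21.7. Prrt2, whose product restrains Scn2a and Scn8a channels, had 190 ± 5.14, and Bace1 had 70.3 ± 2.84. Of 11 regulators of channel RNA and transcription, 4 were higher and 1 lower, beside the same shares over all tested genes. Rest, a repressor of neuronal genes in non-neuronal cells, had 28 and 78 footprints and a density of 4.59 ± 0.0381, near that of Scn9a. Rbfox1 and Rbfox2, splicing factors of sodium channel exons, had 123 ± 4.09 and 214 ± 3.53.

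The sodium leak channel gene Nalcn, a relative of the alpha subunit genes that conducts at rest, had a density of 16.2 ± 0.214 (SD, n = 2), below Scn8a in both replicates. Its partners Unc79 and Unc80 had 4.12 ± 0.786 and 2.29 ± 0.251. None of the 4 leak channel genes found in the table was called, while 17.4% of all tested genes were. The fifth listed name, Nlf1, did not occur in the table as a symbol, which does not show that a gene is missing.

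**Figure D5:**
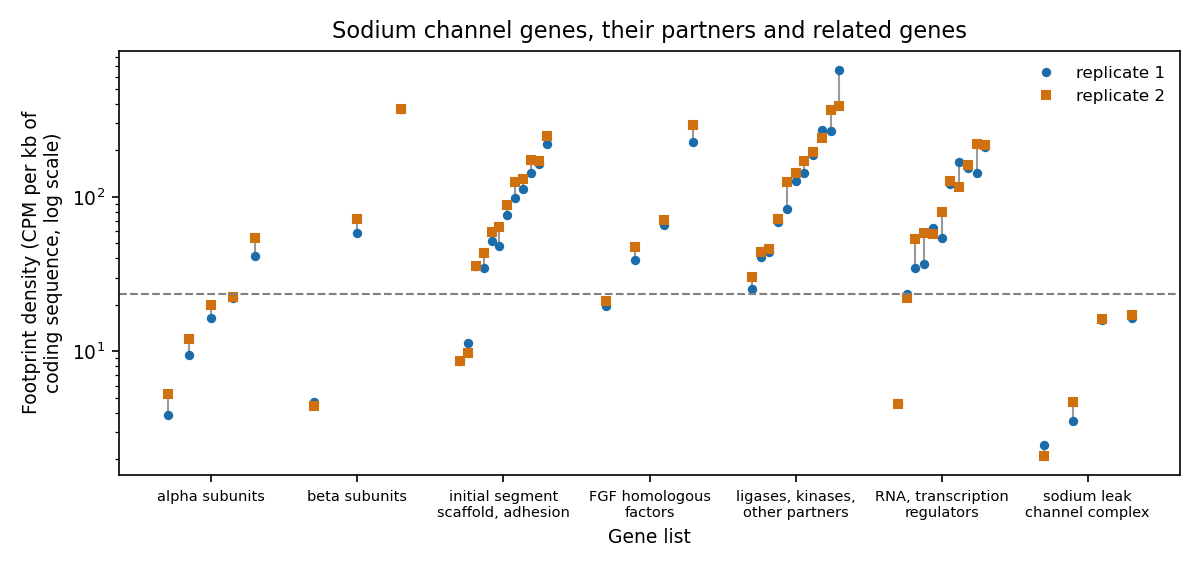
Footprint density (log axis) of alpha and beta subunit genes and of 5 lists of partners and related genes, with 1 point per gene and replicate, a line joining the replicates and a dashed line at the median of all tested coding genes, 23.5. Most scaffold, ligase and regulator genes lie above that median, and the leak channel genes lie below the median.

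Over the 49 listed genes and members, likeness to each alpha subunit gene was measured as the distance between log2 densities over the 2 libraries, which with 2 samples describes level alone. Nearest to Scn2a were Pum2 at a distance of 0.20 and Fgf14 at 0.21, and nearest to Scn3a were Rcor1 at 0.08 and Fgf11 at 0.19. Nearest to Scn8a were Fam155a at 0.22 and Fgf11 at 0.27, to Scn1a Cntnap1 at 0.41 and Sptbn4 at 0.49, and to Scn9a Unc79 at 0.22 and Rest at 0.34. No sodium channel gene was among the nearest pair of another.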

How the data were processed

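Footprint counts per annotated transcript were deposited by the authors in 1 table, as whole numbers without normalization, together with annotated lengths in nucleotides. Per the submitters' processing notes, Trimmomatic 0.36, Bowtie2 2.2.6, SAMtools and the build GRCm38.p4 were used; the roles of the tools, the counter and the treatment of fragments with several matches are not given in the sources used here. Depth per library is given with the results.

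Counts were summed over the transcripts of each of 45578 genes. On 88 pairs of transcripts of 1 gene with identical lengths, the mean squared difference over the sum was 0.966, where counting shared fragments on both would give 0 and independent counts 1. The deposited counts were compared between libraries by an exact binomial test (scipy 1.17.1) with TMM sizes (edgeR 4.0.16), Benjamini-Hochberg adjusted over all genes whose mean count reached 10; log2 ratios had a prior of 0.5 CPM. The quasi-likelihood test could not be fitted, since 1 group gives no contrast. DESeq2 1.42.0 size factors were an alternative. The procedure was tested on simulated data with Poisson counts alone. Those data held no variation between animals, so the simulation does not cover differences between replicate brains.

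By rule, the 8 sodium channel genes, the other Scn genes and genes of fixed lists of partners and markers were named; a few of these are not reported here. The members and lists were chosen with earlier results of these data known. Gene order came from RefSeq names, with no coordinates taken. Reading frame, position along transcripts and matched RNA were not analysed here.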

Additional observations from a re-analysis of the deposited data

How the results depend on the processing

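No paired analysis was possible because there was only 1 group. The order of the 5 alpha and of the 3 beta subunit genes was the same in every setting tried, and none of the density ratios between them crossed 1. The early to late ratio, 2.45, became 2.40 with coding transcripts only, 2.23 with count-weighted coding length, 2.59 with the longest transcript length and 4.33 with the highest transcript per gene, which leaves out most transcripts of Scn8a by construction. It was 2.42 to 2.48 when a replicate was left out. The summed density of the 8 genes, 545, became 449 with coding transcripts only, 583 with count-weighted coding length, 129 with the longest transcript length and 135 with the highest transcript per gene, and was 526 to 563 without a replicate. The 2861 genes called between the libraries became 1444 with the highest transcript per gene and 11 with edgeR's exact test (719 at an unadjusted p under 0.05). All of those 11 were higher in replicate 2. Library totals gave 1896 higher and 1227 lower in place of 978 and 1883. Counts under 20 limit Scn4b.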
